A study of Mus musculus with 18 samples.

Results

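The genes described here encode the proteasome, and they were taken from the table of gene counts as the protein-coding genes whose symbols run Psma, Psmb, Psmc, Psmd or Psme followed by a digit. The rule found 45 genes among the 55487 gene identifiers of the table, and 43 of them passed the filter on low counts. RNA was sequenced from mouse splenic NK cells in 18 libraries, in 6 groups of 3. All mice carried a Rosa YFP reporter on both alleles and Ncr1 CRE-ERT2, a tamoxifen-activated recombinase under a promoter that is active in NK cells and some other innate lymphoid cells. The knock-out mice were also Acly fl/fl, so that the recombinase could remove part of Acly, the enzyme that makes cytosolic acetyl-CoA from citrate, and the wild-type mice lacked the floxed alleles. Both genotypes received a tamoxifen diet for 48 hours, and YFP+ cells were sorted 5 days after it was withdrawn, so the wild-type cells had undergone tamoxifen and recombinase activity as well. Fresh cells were taken without culture. Primed cells, taken here to be those labelled hd15, had 72 hours of IL-15 at 100 ng/ml, a cytokine of NK cell growth, and the NKG2D group had the same priming, a wash and then 6 hours on plate-bound NKG2D stimulus at 20 ug/ml. The ages and sexes of the mice, the number of animals behind each library and the share of sorted cells with a recombined Acly allele were not stated in the labels.

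The proteasome degrades proteins tagged with ubiquitin. Its 20S core is a barrel of stacked rings, with outer rings of alpha subunits that gate the entry and inner rings of beta subunits, of which Psmb6 (beta1), Psmb7 (beta2) and Psmb5 (beta5) cut peptide bonds. The 19S regulatory particle caps the barrel: its base of Psmc ATPases and large Psmd subunits unfolds substrates, and its lid removes the ubiquitin chain. In lymphocytes, and elsewhere after interferon, Psmb9, Psmb10 and Psmb8 take the places of Psmb6, Psmb7 and Psmb5 to form the immunoproteasome, and Psme1 and Psme2 form the PA28 activator ring. That form of the particle is known for making peptides for MHC class I. Transcription of the constitutive genes is known to be raised together by Nfe2l1, and that of the inducible genes by interferon, in part through Irf1.

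The promoters of 4 catalytic and activator genes are shown because the results below set constitutive against inducible genes. The windows run from 250 bases before to 50 bases after the start that RefSeq gives (GRCm38.p6). Psmb5 lies at chr14:54617946-54618245, minus strand, Psmb6 at chr11:70525107-70525406, plus strand, Psmb9 at chr17:34187281-34187580, minus strand and Psme1 at chr14:55578244-55578543, plus strand. Capitals mark a match to 1 of 3 motifs searched on both strands: TGACNNNGC (the type bound by Nfe2l1 and Nfe2l2) in Psmb5 and Psmb6, CCAAT (the NF-Y type, on the reverse strand) in Psmb9, and GAAA, any 2 bases and GAAA again (the interferon response type, on the reverse strand) in Psme1.
Psmb5: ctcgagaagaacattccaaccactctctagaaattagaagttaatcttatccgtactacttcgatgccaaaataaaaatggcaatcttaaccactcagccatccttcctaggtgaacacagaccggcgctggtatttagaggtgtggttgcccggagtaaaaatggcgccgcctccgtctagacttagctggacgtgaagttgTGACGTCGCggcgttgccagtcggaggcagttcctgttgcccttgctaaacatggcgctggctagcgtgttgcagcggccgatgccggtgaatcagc
Psmb6: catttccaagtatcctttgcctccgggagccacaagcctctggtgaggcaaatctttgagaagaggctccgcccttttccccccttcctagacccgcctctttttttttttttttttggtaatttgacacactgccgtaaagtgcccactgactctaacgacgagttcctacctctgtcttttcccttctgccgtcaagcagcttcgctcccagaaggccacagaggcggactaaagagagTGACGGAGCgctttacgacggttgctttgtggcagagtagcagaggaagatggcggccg
Psmb9: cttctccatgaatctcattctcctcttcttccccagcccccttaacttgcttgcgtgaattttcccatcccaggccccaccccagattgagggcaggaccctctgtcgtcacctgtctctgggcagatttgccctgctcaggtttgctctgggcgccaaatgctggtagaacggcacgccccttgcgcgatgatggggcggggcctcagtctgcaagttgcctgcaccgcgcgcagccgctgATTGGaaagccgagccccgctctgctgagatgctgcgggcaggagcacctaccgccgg
Psme1: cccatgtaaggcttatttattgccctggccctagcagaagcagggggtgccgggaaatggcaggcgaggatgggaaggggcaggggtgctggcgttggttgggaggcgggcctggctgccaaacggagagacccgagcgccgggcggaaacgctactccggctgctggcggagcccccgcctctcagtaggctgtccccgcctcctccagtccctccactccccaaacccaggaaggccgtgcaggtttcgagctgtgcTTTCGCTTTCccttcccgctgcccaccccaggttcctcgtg

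A window was found for 38 of the 45 genes. TGACNNNGC matched in 6 of the 38 (15.8%), against 12.4% of all 32851 windows of the same length, and both constitutive catalytic genes with a window (Psmb5 and Psmb6) were among the 6, at 47 and 9 bases before the start. The interferon response type matched in 4 (10.5%, against 3.44% of all windows), of which Psme1 was the only inducible gene, 10 bases after its start. CCAAT matched in 15 (39.5%, against 37.4%), and in 5 of the 7 genes of the alpha ring. None of these 3 motifs matched in the windows of Psmb8, Psmb10 and Psme2. The Psmb9 window shared 275 bases with the window of Tap1, the peptide transporter gene that starts next to it in the opposite direction. These matches describe letters in a window and were not tested for binding.

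Library totals ran from 14772350 to 34367582 expected counts. Primed knock-out replicate 1 had the lowest total and 14695 genes above 0, against at least 17877 in the other 17, and primed wild-type replicate 3 stood apart from the other primed wild-type libraries in several genes described at the end; results that rest on primed cells were also computed without these 2 libraries. Acly was lower in every knock-out library, at 16.0, 15.3 and 25.5 CPM (counts scaled to the library total, corrected by TMM) in fresh cells against 232, 254 and 265 in wild type, with log2 fold changes of -3.72, -2.58 and -2.17 in fresh, primed and NKG2D-stimulated cells. The gap was smaller after priming: Acly changed by 1.17 in knock-out and 0.034 in wild-type priming, and the difference of 1.14 passed the edgeR test described below. All 10 NK cell marker genes were above 0 in every library, and their summed level was 16904 ± 1061 CPM (mean ± SD, n = 3 here and below) in fresh wild-type cells and 6362 ± 694 CPM in NKG2D-stimulated knock-out cells. Markers of other cells were mixed. Of B cells, Ms4a1 was at 0 in 15 libraries, and Cd79b did not exceed 5.35 CPM. Of T cells, Cd4 and Cd8a were each at 0 in 13, while Cd3d (3.47 to 25.5 CPM) and Cd3g (7.51 to 42.9 CPM) were present in every library. Of myeloid cells, S100a8 and S100a9 were each at 0 in 16, while Cd68 ran from 10.5 to 109 CPM. Red blood cell markers summed to 115 to 201 CPM in fresh wild-type libraries and did not exceed 1.54 CPM in any primed or NKG2D-stimulated library.

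Per kilobase of the principal transcript, the 14 constitutive core genes had a median of 132 CPM per kb in fresh wild-type cells, from 58.6 for Psma3 to 428 for Psmb3. These ranks depend on the transcript length used, which was 2846 bases for Psma3 and 1183 for Psmb4. Before division by length Psma3 had a mean of 167 CPM, above the 74.7 CPM of Psmb4. The 17 subunits of the 19S particle had a median of 77.5 CPM per kb, and the lowest of them was Psmd3, a lid subunit, at 16.0 CPM per kb. The 5 inducible genes had a median of 254 CPM per kb, led by Psmb8 at 338 CPM per kb. On this scale Psmb8 exceeded Psmb5, the subunit whose place it takes, by 2.66 to 3.24 times in the 3 fresh wild-type libraries, and Psmb10 exceeded Psmb7 by 2.34 to 2.58 times. Psmb9 was below Psmb6, at 0.294 to 0.380 of its level. The other activators were rarer, with 23.8 CPM per kb for Psme3 (PA28 gamma, the nuclear activator) and 3.73 CPM per kb for Psme4 (PA200). The 2 genes left out by the filter are forms restricted to other tissues. Psma8, an alpha subunit of the male germ line, did not exceed 0.239 CPM in any library, and Psmb11, the catalytic subunit of the thymus, was above 0 in a single library, at 0.0571 CPM.

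Most of the proteasome rose in wild-type cells with IL-15 priming. Fresh cells were not cultured and no group was cultured without IL-15, so the cytokine and the culture cannot be told apart. Of the 43 tested genes, 33 rose and 0 fell at an adjusted p under 0.05 (edgeR quasi-likelihood test, Benjamini-Hochberg adjustment over 14864 genes). Over all tested genes 26.5% rose and 27.2% fell. No member fell at an unadjusted p under 0.05 or by DESeq2, and limma voom with sample quality weights gave 3 fallen. The median log2 fold change of the 43 was 0.66, beside -0.06 for all genes. The summed level of all 45 genes went from 6955 ± 363 CPM in fresh to 11275 ± 705 CPM in primed wild-type cells. Marker sums also moved with priming: red blood cell markers went from 154 ± 43.4 to 0.104 ± 0.0959 CPM (5 of 5 tested genes fell), myeloid markers from 25.0 ± 4.11 to 58.2 ± 7.96 CPM (1 of 5 rose and 3 fell) and NK cell markers from 16904 ± 1061 to 11992 ± 986 CPM (8 of 10 fell). Their part in the result was not tested. In bulk RNA, a change in the make-up of the cells and a change in RNA per cell cannot be told apart. Without the 2 libraries that stand apart the counts were 35 risen and 3 fallen.

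In the core 13 of the 14 constitutive genes passed the test, all but Psmb4. The median log2 fold change was 0.81 for these 14, 0.81 for the 5 inducible genes and 0.59 for the 17 subunits of the 19S particle. Psma4, an alpha ring subunit, had the largest change among core genes. It measured 145, 150.1 and 142 CPM in the fresh wild-type libraries and 402, 420.1 and 374 CPM in the primed ones (log2 fold change 1.45 ± 0.097 (SE), adjusted p = 1.33e-09), and the groups lay far apart. Psma7, another alpha subunit, went from 264, 263 and 269.8 CPM to 585, 629.5 and 573 CPM (log2 fold change 1.16 ± 0.086 (SE), adjusted p = 4.82e-09). Among the catalytic genes, Psmb5 went from 90.1, 107 and 123 to 194, 200.0 and 176 CPM (log2 fold change 0.84 ± 0.16), Psmb6 changed by 0.65 ± 0.12 and Psmb7 by 0.95 ± 0.10, and each primed library exceeded each fresh one. Of the other beta subunits, Psmb2 had the smallest p, with a log2 fold change of 1.16 ± 0.11.

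Of the 17 subunits of the 19S particle, 14 rose in wild-type priming, including all 6 ATPases. Psmd12, a lid scaffold subunit, went from 81.2, 83.0 and 83.3 CPM to 165, 183 and 174 CPM (log2 fold change 1.07 ± 0.082 (SE), adjusted p = 7.45e-09). Psmc6, an ATPase, changed by 0.82 ± 0.099 and Psmd1, the large base scaffold, by 0.75 ± 0.085. The 3 that did not pass were Psmd4, a ubiquitin receptor, at -0.046 ± 0.12, Psmd8, a lid subunit, at -0.0058 ± 0.13, and Psmd3 at -0.57 ± 0.36.

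Of the 5 inducible genes, 4 rose. Psme2 went from 246, 234 and 264 CPM to 567, 584 and 479 CPM (log2 fold change 1.13 ± 0.10 (SE), adjusted p = 8.3e-08), and its partner Psme1 changed by 0.81 ± 0.16. Psmb9 rose from 128, 110.3 and 121 to 241, 258 and 212 CPM (log2 fold change 0.98 ± 0.18) and Psmb8 by 0.53 ± 0.17. Psmb10 did not pass, at 222, 257 and 291 against 352, 355 and 289.6 CPM (log2 fold change 0.37 ± 0.17 (SE), adjusted p = 0.0808), and its groups overlapped at the edge. None of the 3 chaperones of 19S assembly (Psmd5, Psmd9, Psmd10) passed in either direction.

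**Figure D1:**
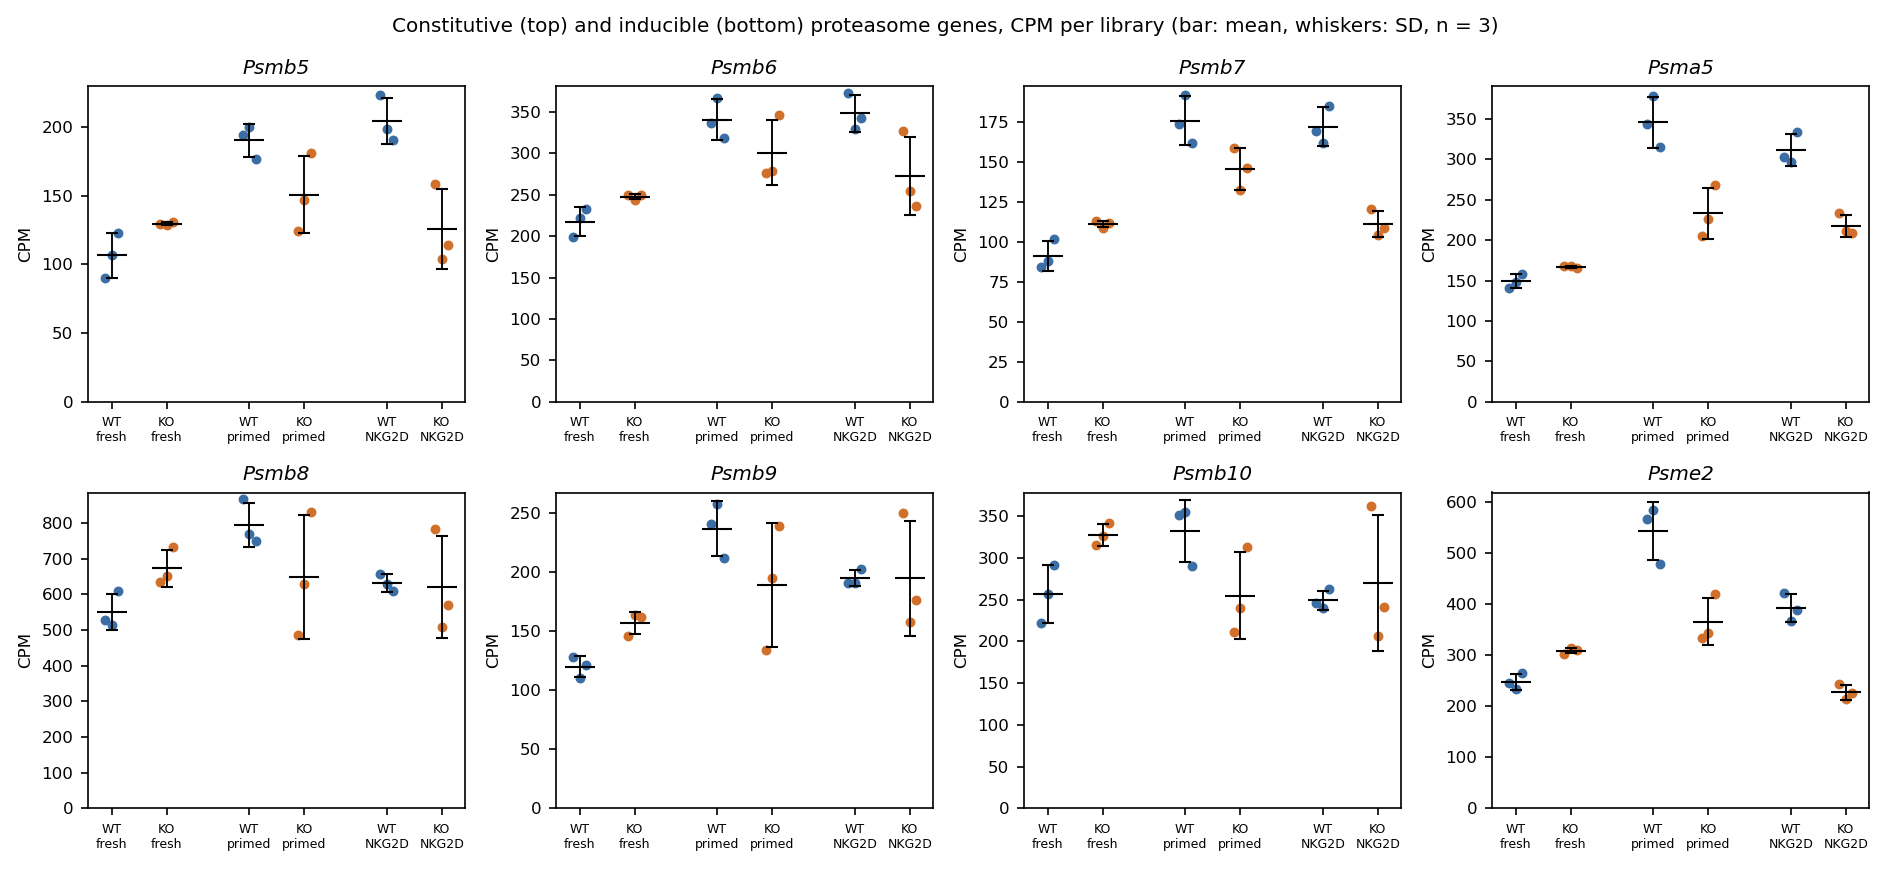
Each panel plots 1 gene, with CPM on the vertical axis from 0 and the 6 groups along the horizontal axis (blue points, wild type; orange, knock-out; each point 1 library; bars and whiskers, mean and SD of 3). In NKG2D-stimulated cells the orange points of Psmb5, Psmb6, Psmb7, Psma5 and Psme2 sit below every blue point, while those of Psmb8, Psmb9 and Psmb10 overlap them.

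Knock-out cells had a smaller rise in the core after priming. In them 21 of the 43 genes rose and 2 fell, beside 23.0% and 25.7% of all genes, and the median log2 fold change was 0.35. All 21 were among the 33 that rose in wild type (63.6% of those). Of the 14 constitutive core genes 7 rose, of the 17 subunits of the 19S particle 12 rose and 1 fell (Psmd4, log2 fold change -0.34 ± 0.12 (SE), adjusted p = 0.024), and of the 5 inducible genes 0 passed the test, although at an unadjusted p under 0.05 there was 1, and DESeq2 and voom counts over all 43 were 24 and 29 risen. Psma4 again had a large rise, from 187, 175 and 158 to 283, 316 and 343 CPM (log2 fold change 0.86 ± 0.096 (SE), adjusted p = 1.04e-06). Psmd7, a lid subunit, rose by 0.86 ± 0.078, close to its 0.93 ± 0.078 in wild type. Psme1 measured 376, 393 and 399 CPM fresh and 282, 341 and 434 CPM primed, an overlap with a log2 fold change of -0.14 ± 0.16. The second gene that fell was Psme4 (log2 fold change -0.46 ± 0.17 (SE), adjusted p = 0.036). Without primed knock-out replicate 1 and primed wild-type replicate 3, 28 rose and 0 fell, and with the replicate number as a block 20 rose and 0 fell. The calls of Psmd4 and Psme4 were each lost in 10 of 15 alternatives, the block among them (adjusted p = 0.0539 for Psmd4 and 0.0534 for Psme4). The block also ended the call of Psmd11, a lid subunit (adjusted p = 0.0891). Marker sums moved here too, with NK cell markers at 18867 ± 1265 and 11372 ± 1143 CPM, myeloid markers at 17.2 ± 0.246 and 39.4 ± 1.91 CPM and red blood cell markers at 17.2 ± 0.890 and 0.514 ± 0.890 CPM, untested as well.

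The difference between the 2 priming responses was tested directly. The response was smaller in knock-out cells for 10 of the 43 genes and larger for 0 (1 at an unadjusted p under 0.05), beside 6.41% and 4.08% of all genes, and DESeq2 gave 15 smaller and 0 larger. The 10 were 7 constitutive core genes (Psma2, Psma4, Psma5, Psma7, Psmb1, Psmb2, Psmb7), Psme1, Psme2 and Psme2b, with 0 of the 17 subunits of the 19S particle among them (5 at an unadjusted p under 0.05, 1 of them larger). Psme1 differed most (difference of log2 fold changes -0.96 ± 0.23, adjusted p = 0.0131), then Psme2 (-0.89 ± 0.15, adjusted p = 0.00128). Among core genes Psmb1, a beta subunit of the inner ring, differed by -0.77 ± 0.14 (adjusted p = 0.00253) and Psma5, an alpha subunit, by -0.74 ± 0.14 (adjusted p = 0.00431). The 3 inducible catalytic genes had differences of the same sign that did not pass: -0.58 ± 0.24 for Psmb8, -0.71 ± 0.25 for Psmb9 and -0.73 ± 0.25 for Psmb10, with adjusted p of 0.125, 0.0735 and 0.0642. The count depended on single libraries: it was 6 without primed wild-type replicate 2, 18 without primed knock-out replicate 3 and 20 (17 smaller, 3 larger) without primed wild-type replicate 3, and limma voom with sample quality weights gave 25 smaller and 3 larger. The differences for Psma5, Psma7, Psmb1, Psmb2, Psme2 and Psme2b passed in each of the 21 alternatives run. Each difference also holds the fresh groups. Between genotypes Psme1 had log2 fold changes of 0.47 in fresh and -0.49 in primed cells, and Psmb7 of 0.28 and -0.27. Psma2 and Psmb7 passed between genotypes in neither condition. Red blood cell markers differed between the fresh groups (115 to 201 CPM in wild type, 16.4 to 18.1 CPM in knock-out), and their part was not tested.

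**Figure D2:**
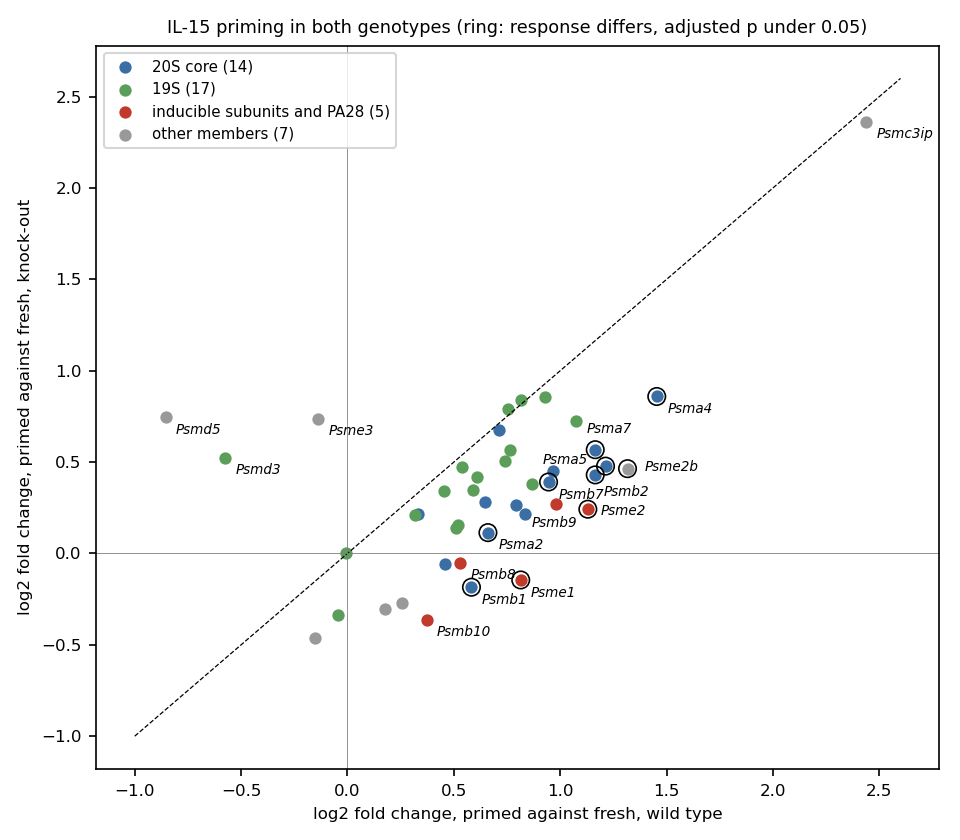
Each point is 1 of the 43 tested genes, with the log2 fold change of primed over fresh cells in wild type on the horizontal axis and in knock-out on the vertical axis; the dashed line marks equal change and rings mark the 10 genes whose response differed. The 10 ringed genes lie below the line, and 37 of the 43 have a smaller log2 fold change in knock-out than in wild type.

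After priming, the genotypes themselves differed in fewer genes. Knock-out cells were lower in 9 of the 43 genes and higher in 0 (8.52% and 7.00% of all genes). No gene was higher at an unadjusted p under 0.05 or by DESeq2, and limma voom gave 2 higher and 15 lower. The 9 were 5 core genes (Psma4, Psma5, Psma7, Psmb1, Psmb2), Psme1, Psme2, Psme2b and Psmd10 (gankyrin, a 19S assembly chaperone). Of the 17 subunits of the 19S particle 0 passed, and 0 had an unadjusted p under 0.05. By the authors' deposited table Psmd8, a lid subunit, was higher (0.40, adjusted p = 0.000991). Over the 43 genes that table had 14 lower and 2 higher, and the share over all its genes is not given here. Psma5 measured 343, 379 and 316 CPM in primed wild-type libraries and 205, 227 and 268 CPM in knock-out (log2 fold change -0.57 ± 0.10 (SE), adjusted p = 0.00113), with no overlap. Psmb1 measured 648, 729.6 and 594 CPM and 427, 467 and 491 CPM (log2 fold change -0.51 ± 0.099 (SE), adjusted p = 0.00211), again apart. For Psme2 the values were 567, 584 and 479 CPM and 334, 344 and 419 CPM (log2 fold change -0.57 ± 0.10 (SE), adjusted p = 0.00133), and for Psme1 558, 538 and 393 CPM and 282, 341 and 434 CPM (log2 fold change -0.49 ± 0.16 (SE), adjusted p = 0.047). The Psme1 groups overlapped, and its call was lost in 8 of 15 alternatives. Psmd10 lost its call in 11 of 15 alternatives, while Psma5, Psmb1 and Psme2 kept theirs in all 15.

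None of the 6 catalytic genes passed the edgeR test in primed cells. By the authors' deposited table Psmb5 (-0.26, adjusted p = 0.0306), Psmb7 (-0.32, adjusted p = 0.00302) and Psmb10 (-0.35, adjusted p = 0.0131) were lower. Psmb6, Psmb8 and Psmb9 did not pass there. Psmb5 measured 194, 200.0 and 176 against 125, 147 and 181 CPM (log2 fold change -0.33 ± 0.15 (SE), adjusted p = 0.151), Psmb6 and Psmb7 had log2 fold changes of -0.18 ± 0.12 and -0.27 ± 0.10, and Psmb8, Psmb9 and Psmb10 of -0.29 ± 0.17, -0.32 ± 0.17 and -0.38 ± 0.17. In primed knock-out cells replicate 1 had the lowest Psmb8 (486 CPM) and replicate 3 the highest (832 CPM), a spread wider than the distance between the genotypes. The number of genes lower in knock-out was 4 without primed wild-type replicate 2, 5 without primed knock-out replicate 2, 14 without primed knock-out replicate 3 and 8, with 2 higher, without the 2 libraries that stand apart. Among the 5 core genes alone it ran from 2 without primed wild-type replicate 2 and 3 without primed knock-out replicate 2 to 8 without primed wild-type replicate 3 or primed knock-out replicate 3, and the Psma4 call was lost in 8 of 15 alternatives. The summed T cell marker level moved with genotype here, at 30.6 to 61.9 CPM in wild-type libraries and 16.9 to 19.3 CPM in knock-out libraries, beside summed proteasome levels of 10511 to 11900.0 and 8676 to 10636 CPM. Its 6 genes held 3 that were above 0 in every library (Cd3e, Cd3d, Cd3g) and 3 that were mostly at 0 (Cd4, Cd8a, Cd8b1), and its part in the result was not tested. Myeloid markers summed to 53.4 to 67.4 and 37.5 to 41.3 CPM, also untested.

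More of the genes differed between genotypes after NKG2D stimulation. Knock-out cells were lower in 24 of the 43 genes and higher in 1, beside 9.47% lower and 8.75% higher among all genes, and the median log2 fold change was -0.35 (0.03 over all genes). The summed level of all 45 genes was 10522 ± 284 CPM in wild-type libraries and 8290.1 ± 668 CPM in knock-out libraries. In the core 13 of 14 constitutive genes were lower, or 8 without NKG2D knock-out replicate 3, and the Psma1 call was lost in 8 of 14 alternatives. Psmb4 did not pass, at 120.0, 124 and 83.1 against 88.5, 79.4 and 81.4 CPM (log2 fold change -0.39 ± 0.16 (SE), adjusted p = 0.0989). At an unadjusted p under 0.05 all 14 were lower, and by the authors' deposited table Psmb4 was lower (-0.53, adjusted p = 7.32e-05). Psma7, the alpha subunit with the smallest p, measured 535, 551 and 614 CPM in wild-type libraries and 408, 386 and 387 CPM in knock-out libraries (log2 fold change -0.52 ± 0.085 (SE), adjusted p = 0.000459). Every wild-type library exceeded every knock-out library for it, as for all 7 alpha genes (17.1% of all tested genes had such an order). Psmb2, an inner ring subunit, measured 405, 383 and 418 and 311, 247 and 254 CPM (log2 fold change -0.57 ± 0.11 (SE), adjusted p = 0.00191).

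The 3 constitutive catalytic genes were lower, and the 3 inducible ones did not pass the test. Psmb5 measured 223, 199 and 191 CPM in wild-type libraries and 159, 104 and 114 CPM in knock-out libraries, 61.6% of the wild-type level (log2 fold change -0.70 ± 0.15 (SE), adjusted p = 0.00451). Psmb7 measured 169.8, 162 and 185 and 121, 105 and 109 CPM, or 64.6% (log2 fold change -0.63 ± 0.10 (SE), adjusted p = 0.000432), and Psmb6 373, 329.6 and 342 and 327, 255 and 237 CPM, or 78.3% (log2 fold change -0.35 ± 0.12 (SE), adjusted p = 0.0473). None of these 3 genes had overlapping groups, although the Psmb6 call was lost in 9 of 14 alternatives. Psmb8 measured 658, 629 and 610.1 CPM in wild-type libraries and 783, 509.6 and 570.1 CPM in knock-out libraries (log2 fold change -0.026, 95% interval -0.38 to 0.33). Psmb9 measured 191, 191 and 203 and 250.1, 158 and 177 CPM (log2 fold change -0.00046, 95% interval -0.37 to 0.37), and Psmb10 246, 240.1 and 262 and 362, 207 and 241 CPM (log2 fold change 0.11, 95% interval -0.25 to 0.48). In all 3 the knock-out libraries lay on both sides of the wild-type libraries, with replicate 1 the highest, and the intervals leave room for changes of either sign.

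The PA28 pair did not follow the inducible catalytic genes. Psme2 measured 422, 368 and 389 CPM in wild-type libraries and 243, 213 and 226 CPM in knock-out libraries, 58.0% of the wild-type level (log2 fold change -0.79 ± 0.10 (SE), adjusted p = 7.49e-05), and its call held in all 14 alternatives. Psme1 measured 442, 416 and 449.5 and 346, 237 and 267 CPM (log2 fold change -0.62 ± 0.16 (SE), adjusted p = 0.0131). Neither pair of groups overlapped. The activators Psme3 (0.33 ± 0.32) and Psme4 (-0.23 ± 0.17) did not pass.

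Of the 17 subunits of the 19S particle 8 were lower in NKG2D-stimulated knock-out cells. Psmd6, a lid subunit, measured 141, 152 and 158 CPM in wild-type libraries and 90.2, 97.0 and 102 CPM in knock-out libraries (log2 fold change -0.64 ± 0.082 (SE), adjusted p = 5.68e-05). Psmc5, an ATPase, measured 221, 196 and 203 and 157, 137 and 132 CPM (log2 fold change -0.54 ± 0.088 (SE), adjusted p = 0.00047), and Psmd1 210.0, 190.3 and 179 and 139.8, 127 and 140.3 CPM (log2 fold change -0.51 ± 0.085 (SE), adjusted p = 0.000592). The groups of these 3 genes did not overlap. Psmd7 and Psmd14, the pair at the deubiquitinating site of the lid, changed by -0.48 ± 0.077 and -0.34 ± 0.099 and were also among the 8. Psmc2 (-0.12 ± 0.086), Psmd2 (-0.14 ± 0.11) and Psmd13 (-0.13 ± 0.11) were among the subunits that did not pass. By the authors' deposited table Psmd2 (-0.21, adjusted p = 0.0122) and Psmd13 (-0.18, adjusted p = 0.0368) were lower. So were Psmc1 (-0.22, adjusted p = 0.00243), Psmc3 (-0.23, adjusted p = 0.00175), Psmd4 (-0.20, adjusted p = 0.0156) and Psmd8 (-0.34, adjusted p = 0.000732). Psmc2 (-0.09, adjusted p = 0.315) and Psmc6 (-0.15, adjusted p = 0.155) did not pass there, and Psmd3 was higher. Over the 43 genes that table had 33 lower and 4 higher, and the share over all its genes is not given here. Without NKG2D knock-out replicate 3 the count was 5 of the 17, and 15 over all 43. Marker levels of other cells also moved: myeloid markers summed to 49.0 to 69.9 CPM in wild-type libraries and 90.8 to 109 CPM in knock-out libraries, mostly Cd68, with 4 of the 7 genes at 0 in over 10 libraries, and T cell markers to 27.3 to 48.0 and 13.8 to 16.9 CPM. Their part in the result was not tested.

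**Figure D3:**
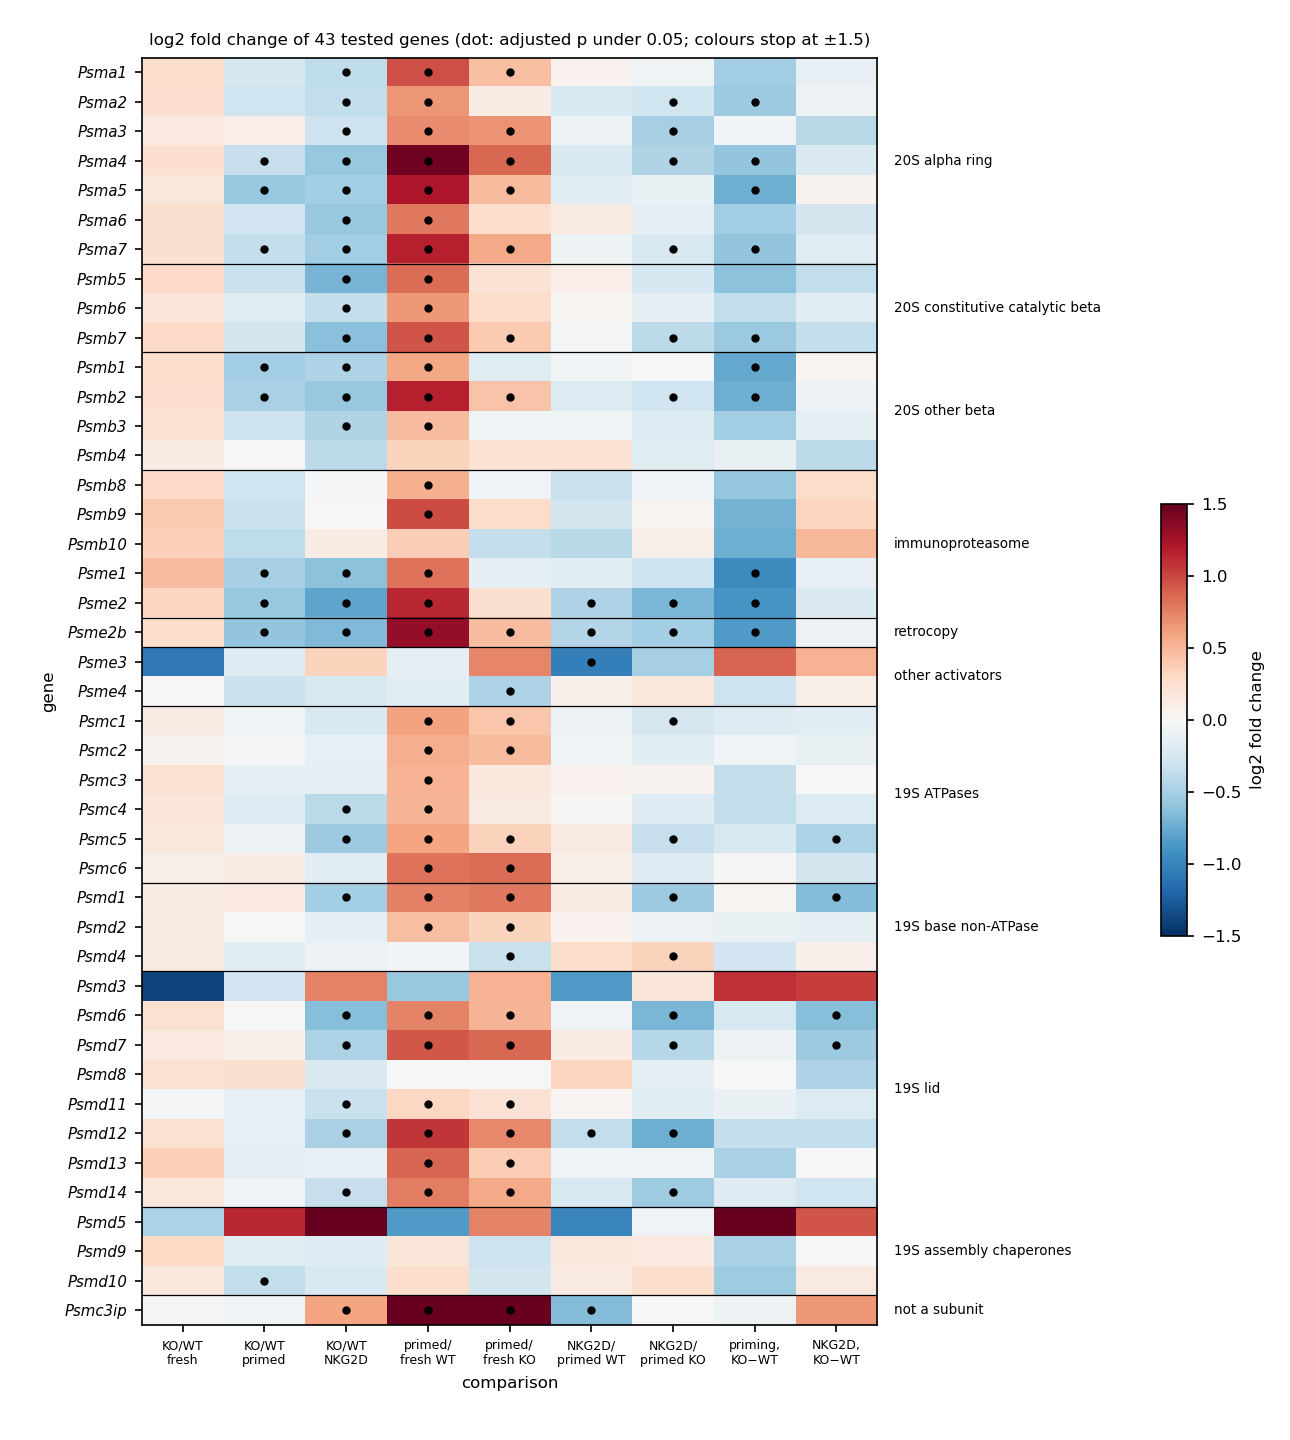
Rows are the 43 tested genes grouped by role and columns the 9 comparisons; red and blue give the log2 fold change (colours stop at -1.5 and 1.5) and dots mark adjusted p under 0.05. The NKG2D knock-out column is blue with dots in 13 of 14 constitutive core rows and near white in the rows of Psmb8, Psmb9 and Psmb10.

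Few of these genes changed from priming to NKG2D stimulation in wild-type cells. The NKG2D cells were also washed and kept for longer, and no group was washed and kept as long without the stimulus. The stimulus, the wash and the added time therefore cannot be told apart. Against primed cells 5 fell and 0 rose (10.7% and 9.20% of all genes; 2 rose at an unadjusted p under 0.05, and DESeq2 also gave 5 and 0), with a median log2 fold change of -0.05. The 5 were Psme3 (-1.02 ± 0.32), Psmc3ip (-0.65 ± 0.16), Psme2 (-0.47 ± 0.10), Psme2b (-0.44 ± 0.12) and Psmd12 (-0.37 ± 0.081). The Psme3 call was lost in 8 of 15 alternatives, and without primed wild-type replicate 3 its log2 fold change was -0.41 (adjusted p = 0.293). No constitutive core gene passed (2 did at an unadjusted p under 0.05), and limma voom gave 14 fallen and 3 risen over all 43. Psme2 went from 567, 584 and 479 CPM to 422, 368 and 389 CPM (adjusted p = 0.00348). Psmb8, Psmb9 and Psmb10 had log2 fold changes of -0.33, -0.28 and -0.41, with every NKG2D library below every primed one (an order that 20.0% of all tested genes had), and none of the 3 passed. The count was 3 without NKG2D wild-type replicate 1 or 2, and 7 fallen with 1 risen without the 2 primed libraries that stand apart.

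In knock-out cells 15 of the 43 genes fell from priming to NKG2D stimulation and 1 rose, beside 16.9% and 18.4% of all genes. The same limit of wash and time holds here. Of the constitutive core 6 of 14 fell, and of the 19S particle 7 of 17. The core count was 2 without NKG2D knock-out replicate 2, and 3 without NKG2D knock-out replicate 3 or without primed knock-out replicate 3. Psmd12 went from 161, 149 and 169 CPM to 94.4, 93.8 and 99.0 CPM (log2 fold change -0.74 ± 0.081 (SE), adjusted p = 2.23e-06), and Psmd6 from 162, 153 and 149 to 90.2, 97.0 and 102 CPM (log2 fold change -0.68 ± 0.082 (SE), adjusted p = 5.79e-06). Psme2 (-0.68 ± 0.10, adjusted p = 6.46e-05) and Psmd1 (-0.54 ± 0.085) fell as well. The gene that rose was Psmd4 (log2 fold change 0.35 ± 0.12 (SE), adjusted p = 0.0284). Its call was lost in 8 of 15 alternatives, and its log2 fold change was 0.18 without NKG2D knock-out replicate 1 (adjusted p = 0.188). Without primed knock-out replicate 1 the adjusted p was 0.158, and without primed knock-out replicate 2 it was 0.0571. Myeloid markers went from 39.4 ± 1.91 to 97.4 ± 10.2 CPM in the same comparison (2 of 5 tested genes rose) and NK cell markers from 11372 ± 1143 to 6362 ± 694 CPM (8 of 10 fell), and their part in the result was not tested.

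The NKG2D responses of the genotypes were also compared directly, with the same limit of wash and time. The response was lower in knock-out cells for 4 of the 43 genes and higher for 0 (2.07% and 1.49% of all genes), with 1 higher at an unadjusted p under 0.05, 6 lower and 0 higher by DESeq2 and 8 lower and 2 higher by limma voom. All 4 were 19S subunits: Psmd1 (difference -0.65 ± 0.12, adjusted p = 0.00636), Psmd6 (-0.63 ± 0.12, adjusted p = 0.00609), Psmd7 (-0.55 ± 0.11, adjusted p = 0.0108) and Psmc5 (-0.47 ± 0.12, adjusted p = 0.0457). The calls of Psmd1 and Psmd6 held in all 21 alternatives, that of Psmd7 was lost in 4 of 21 and that of Psmc5 in 15 of 21. Psmd1, with the largest difference, had 177, 188 and 170.1 CPM in primed and 210.0, 190.3 and 179 CPM in NKG2D-stimulated wild-type cells. In knock-out cells it had 189.7, 198 and 204 then 139.8, 127 and 140.3 CPM. For Psmd1 each primed knock-out library was above each primed wild-type library, by a narrow gap (189.7 against 188 CPM at the edge). After NKG2D each knock-out library was below each wild-type library. The primed groups of Psmd6, Psmd7 and Psmc5 overlapped. No core gene passed in this comparison (2 at an unadjusted p under 0.05). Both comparisons of responses use the primed libraries, with opposite sign, so they are not independent.

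The balance of inducible to constitutive catalytic subunit was taken as a log2 ratio of CPM within each library, which library scaling does not affect. For Psmb8 to Psmb5 it was 1.56, 1.66 and 1.68 in NKG2D-stimulated wild-type cells and 2.30, 2.30 and 2.32 in knock-out cells, a difference of 0.67. For Psmb10 to Psmb7 it was 0.53, 0.57 and 0.50 and 1.58, 0.98 and 1.15, a difference of 0.70. For Psmb9 to Psmb6 it was -0.97, -0.79 and -0.75 and -0.39, -0.69 and -0.42, a difference of 0.34. In each pair every knock-out library lay above every wild-type library, with a two-sided exact permutation p of 0.1, the smallest that 3 against 3 allows, and 0.3 after Benjamini-Hochberg adjustment over the 9 ratio comparisons. Leaving out any 1 library kept the differences between 0.63 and 0.69 for Psmb8 to Psmb5, between 0.53 and 0.83 for Psmb10 to Psmb7 and between 0.27 and 0.43 for Psmb9 to Psmb6.

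In fresh and in primed cells the ratios overlapped between genotypes. For Psmb8 to Psmb5 the means were 2.38 ± 0.15 in fresh wild-type and 2.37 ± 0.098 in fresh knock-out cells (exact permutation p = 1), and 2.07 ± 0.11 and 2.09 ± 0.12 in primed cells (exact permutation p = 0.7). Within wild type this ratio was lower in primed than in fresh cells and lower again after NKG2D, while in knock-out cells it was 1.96, 2.10 and 2.20 primed and 2.30, 2.30 and 2.32 after NKG2D; these steps between conditions were not tested. Psmb9 to Psmb6 in primed knock-out replicate 1 was -1.04, below the -0.52 and -0.53 of the other primed knock-out libraries.

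**Figure D4:**
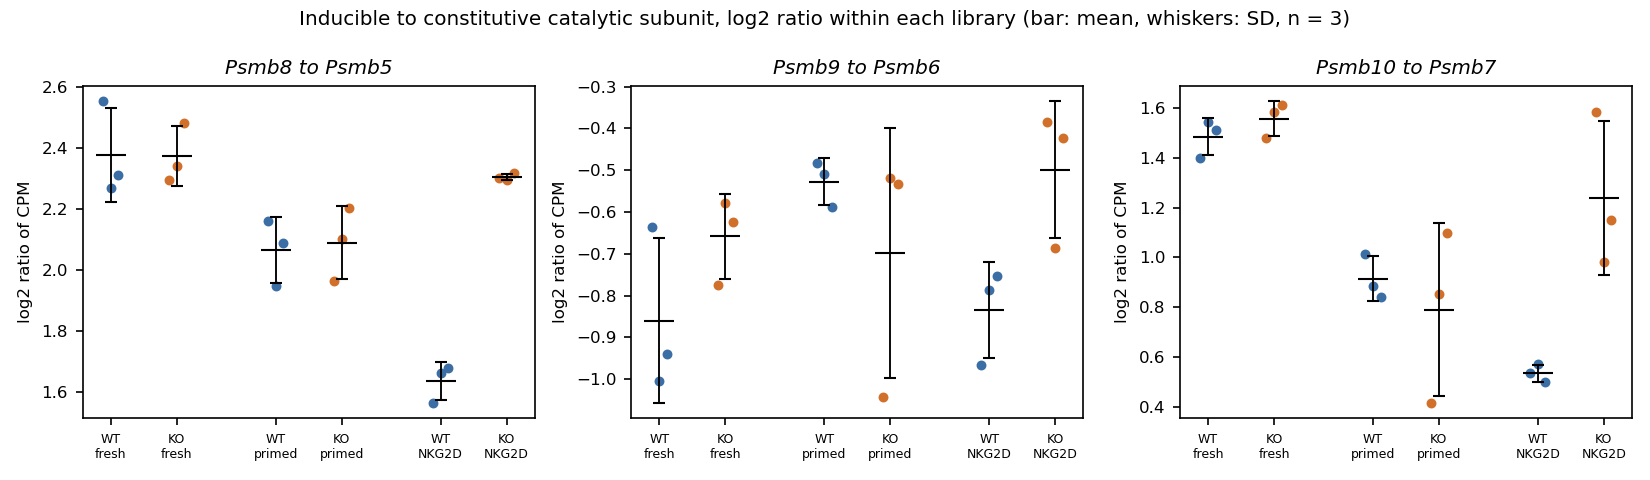
Each panel plots 1 pair of catalytic genes, with the log2 ratio of CPM within a library on the vertical axis (which does not start at 0) and the 6 groups along the horizontal axis (blue, wild type; orange, knock-out; bars and whiskers, mean and SD of 3). In the NKG2D groups all orange points lie above all blue points in the 3 panels, and in fresh and primed cells the colours overlap.

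In fresh cells no member passed the edgeR test between genotypes, in either direction (0.0135% of all genes were higher and 0.0538% lower), with 15 higher and 2 lower at an unadjusted p under 0.05. The levels were nevertheless ordered: in 33 of the 43 genes every knock-out library exceeded every wild-type library, and in 2 the reverse held, beside 14.1% and 12.9% of all genes. The median log2 fold change was 0.22 (0.01 over all genes), and summed levels were 6639.9 to 7352 CPM in wild-type libraries and 8003 to 8111 CPM in knock-out libraries. All 14 constitutive core genes had a log2 fold change above 0, and 13 had groups that did not overlap. Psme1 measured 267, 261 and 318 CPM in wild-type libraries and 376, 393 and 399 CPM in knock-out libraries (log2 fold change 0.47 ± 0.16 (SE), adjusted p = 0.241). Psmb9 measured 128, 110.3 and 121 and 146, 163 and 162 CPM (log2 fold change 0.39 ± 0.17 (SE), adjusted p = 0.36), and Psma7 264, 263 and 269.8 and 329, 304 and 312 CPM (log2 fold change 0.24 ± 0.085 (SE), adjusted p = 0.241). Each of these 3 genes was higher in all knock-out libraries.

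Whether the fresh difference is called depends on the method. By the authors' deposited table, 19 of the 43 genes were higher and 2 lower at an adjusted p under 0.05, beside 7.14% and 7.15% of all genes in that table, among them Psme1 (0.49, adjusted p = 0.00138) and the lid subunit Psmd13 (0.35, adjusted p = 0.00262). Limma voom with sample quality weights gave 15 higher and 2 lower, DESeq2 0 and 2, and edgeR on the fresh libraries alone 4 and 2. After NKG2D stimulation, by contrast, 13 of the 14 constitutive core genes were lower in knock-out cells. Red blood cell markers differed between the fresh groups as well. They summed to 115 to 201 CPM in wild type and 16.4 to 18.1 CPM in knock-out. By edgeR 4 of 5 tested genes were lower in knock-out and 0 higher, beside 0.0538% and 0.0135% of all genes. Of the 6 genes, 5 were at 0 in over 10 libraries. In primed and NKG2D-stimulated libraries the sum did not exceed 1.54 CPM. Their part in the result was not tested.

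The 2 members whose fresh knock-out libraries all lay below the wild-type libraries were Psmd3 and Psme3. Both lie near Acly on chromosome 11, as does Psmc3ip, between Acly and Psme3, whose fresh log2 fold change was 0.014 ± 0.17. Acly is at chr11:100476353-100528000 (GRCm38), Psmd3 at chr11:98682554-98695979, 1.78 Mb away, and Psme3 at chr11:101316213-101323537, 0.79 Mb away. In fresh cells Psmd3 measured 32.4, 38.1 and 32.4 CPM in wild-type libraries and 15.0, 12.1 and 12.1 CPM in knock-out libraries (log2 fold change -1.39 ± 0.37 (SE), adjusted p = 0.206), and Psme3 66.1, 71.6 and 52.9 and 31.0, 28.7 and 31.2 CPM (log2 fold change -1.07 ± 0.32 (SE), adjusted p = 0.209). In the authors' deposited table both passed, at -1.43 (adjusted p = 0.00214) and -1.11 (adjusted p = 0.00227). Among primed wild-type libraries, however, Psmd3 measured 14.2, 13.1 and 41.4 CPM and Psme3 36.5, 38.6 and 97.5 CPM, with replicate 3 far above the other 2. The primed knock-out libraries had 28.8, 13.4 and 14.5 CPM of Psmd3, with replicate 1 the highest, and after NKG2D all wild-type libraries were low, at 13.8, 11.2 and 13.3 CPM.

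Psmd5, a chaperone that holds a 19S ATPase before assembly, split within groups even more widely. It measured 81.2, 80.6 and 90.4 CPM in fresh wild-type cells and 83.4, 47.1 and 51.8 CPM in fresh knock-out cells. Primed wild-type libraries had 10.7, 12.3 and 115 CPM and primed knock-out libraries 138, 111 and 56.5 CPM. After NKG2D the values were 35.8, 20.1 and 13.8 CPM in wild-type libraries and 24.5, 137 and 133 CPM in knock-out libraries, so that single libraries of 1 group differed several-fold. H2-D1, a classical MHC class I heavy chain, and Pdia3, a chaperone that loads it, also split: in primed wild-type cells H2-D1 measured 452, 444 and 4338 CPM and Pdia3 139, 129 and 1236 CPM. None of the differences between genotypes in Psmd3, Psme3 or Psmd5 passed the edgeR test in any condition. By the authors' deposited table Psmd5 was higher in primed (2.47, adjusted p = 0.00215) and NKG2D-stimulated knock-out cells (2.5, adjusted p = 5.4e-05). After NKG2D that table also had Psmd3 (1.07, adjusted p = 0.0044) and Psme3 (0.59, adjusted p = 0.042) higher, the reverse of fresh cells. Psmd3 and Psme3 did not pass there in primed cells, nor Psmd5 in fresh cells. These 3 members and the 2 other genes were singled out after their values were seen, and the cause of the split was not tested.

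**Figure D5:**
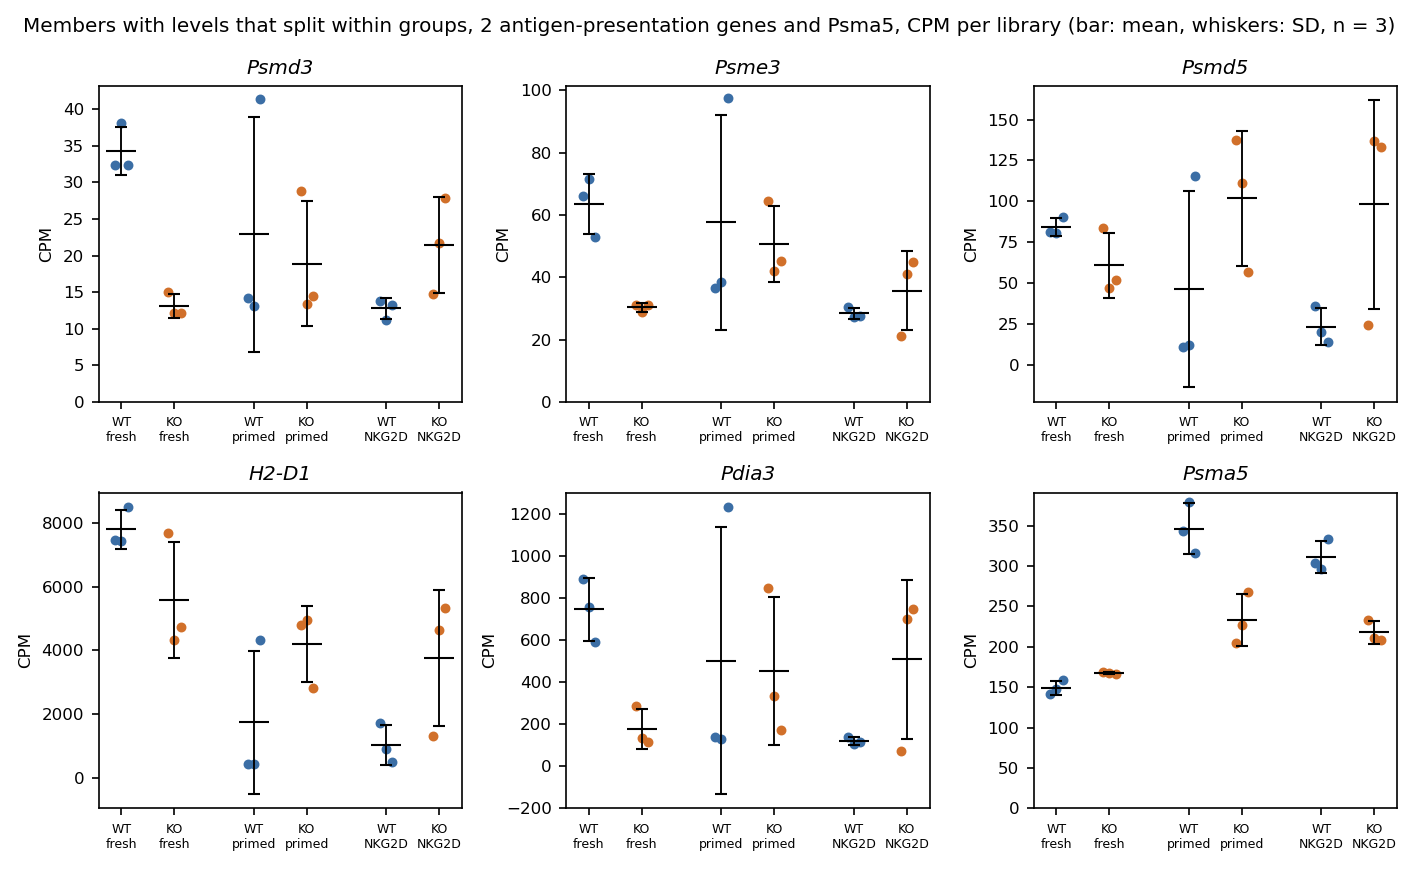
Each panel plots CPM of 1 gene by library and group (blue, wild type; orange, knock-out; bars and whiskers, mean and SD of 3; a whisker may run below 0), with Psma5 as a member that does not split. Primed wild-type replicate 3 is far above the other 2 libraries of its group for Psmd3, Psme3, Psmd5, H2-D1 and Pdia3, while the Psma5 values of that group run from 316 to 379 CPM.

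The pattern of the symbol also takes Psmc3ip, which is a partner of the recombinases of meiosis and homologous recombination and not a proteasome subunit. It rose from 3.54, 3.71 and 5.00 to 21.4, 25.2 and 19.4 CPM in wild-type priming (log2 fold change 2.44 ± 0.17 (SE), adjusted p = 2.48e-09), the largest rise among the 43 genes, by 2.36 ± 0.17 in knock-out, and was the single gene higher in NKG2D-stimulated knock-out cells, at 14.4, 12.6 and 15.2 against 20.3, 21.0 and 22.0 CPM (log2 fold change 0.59 ± 0.16 (SE), adjusted p = 0.0152). Psme2b is an intronless copy of Psme2 on chromosome 11, at chr11:48945354-48946190 (GRCm38), and reads of the 2 genes are hard to separate. Its changes followed those of Psme2, with 1.32 ± 0.12 in wild-type priming and -0.67 ± 0.12 between genotypes after NKG2D, and its values are uncertain for that reason. Several core genes also have processed copies in the mouse genome, and how such reads were divided was not stated in the labels.

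Of 19 genes for assembly and associated factors, 10 rose and 2 fell in wild-type priming, beside 26.5% and 27.2% of all genes. In NKG2D-stimulated knock-out cells 9 were lower and 0 higher, beside 9.47% and 8.75% of all genes. Psmg1, a chaperone that builds the alpha ring, measured 10.4, 12.0 and 13.3 CPM in wild-type libraries and 5.16, 4.87 and 5.55 CPM in knock-out libraries after NKG2D (log2 fold change -1.19 ± 0.14 (SE), adjusted p = 2.86e-05). Pomp, the maturation protein of the core, measured 335, 348 and 381 and 224, 252 and 229 CPM (log2 fold change -0.59 ± 0.087 (SE), adjusted p = 0.000187). The groups of both genes were apart. In primed cells 3 of the 19 were lower: Pomp (-0.40 ± 0.086), Sem1, a small lid subunit named outside the symbol pattern (-0.49 ± 0.12), and Akirin2, which carries proteasomes into the nucleus (-0.65 ± 0.17). Uchl5, a deubiquitinase of the base, was higher (0.48 ± 0.11). Between fresh groups 0 of the 19 passed.

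Of 8 genes known to control proteasome transcription, 3 were higher and 0 lower in primed knock-out cells, beside 7.00% and 8.52% of all genes. Ddi2, the protease that releases Nfe2l1, measured 43.2, 41.6 and 48.1 CPM in wild-type libraries and 85.3, 66.9 and 64.2 CPM in knock-out libraries (log2 fold change 0.70 ± 0.13 (SE), adjusted p = 0.00191), and Mafk, a small partner of Nfe2l1, 8.31, 7.04 and 14.2 and 16.6, 24.2 and 25.7 CPM (log2 fold change 1.16 ± 0.27 (SE), adjusted p = 0.00736). The third was Nfe2l2 (0.42 ± 0.11). Nfe2l1 itself had log2 fold changes of 0.018 ± 0.17 in primed and -0.086 ± 0.17 in NKG2D-stimulated cells, and did not pass. After NKG2D only Ddi2 of the 8 passed, at 0.65 ± 0.13.

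Of 11 genes of MHC class I presentation, 3 were lower and 0 higher in NKG2D-stimulated knock-out cells, beside 9.47% and 8.75% of all genes. These were Calr, a folding chaperone (552, 493 and 417 and 274, 228 and 221 CPM, log2 fold change -1.02 ± 0.12 (SE), adjusted p = 3.85e-05), Erap1, which trims peptides (-0.52 ± 0.09), and B2m, the light chain (-0.39 ± 0.12). Tap1, which shares its promoter region with Psmb9, did not pass, at 0.19 ± 0.25. In primed and in fresh cells none of the 11 genes passed the edgeR test between genotypes, with 1 higher and 1 lower at an unadjusted p under 0.05 in primed cells, and 2 higher and 1 lower in fresh cells.

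Ifng, the type II interferon, a known inducer of Psmb8, Psmb9 and Psmb10, was lower in NKG2D-stimulated knock-out cells, at 88.2, 65.9 and 81.4 CPM in wild-type libraries and 20.6, 20.1 and 15.5 CPM in knock-out libraries (log2 fold change -2.06 ± 0.15 (SE), adjusted p = 3.48e-07). It was singled out after its values were seen.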

How the data were processed

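RNA-seq gene values of 18 libraries were used, prepared with a SMARTer kit per the labels' protocols; mm10, bcl2fastq, DRAGEN and edgeR are named in the submitters' processing notes without roles or versions. The table deposited by the authors holds expected counts per gene (30% of values above 0 are not whole), which were rounded here; whole counts had been assumed in planning. The authors also deposited log2 fold changes and adjusted p-values for genotype, quoted only where named as theirs. A further 54 per-sample columns were not used. Totals of 14772350 to 34367582 set the precision of low genes.

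Counts were scaled by TMM, filtered with filterByExpr and fitted over all 18 libraries with 1 mean per group (edgeR 4.0.16 in R 4.3.3, quasi-likelihood test, Benjamini-Hochberg over 14864 genes, threshold 0.05). Standard errors are the log2 fold change over the square root of F. CPM use TMM-scaled totals, and levels per kb the principal transcript. Alternatives were RLE factors, DESeq2 1.42.0, limma 3.58.1 voom with quality weights, other filters, the compared libraries alone, a 1.2-fold minimum, a replicate block and leaving out each library, and, chosen after seeing the data, leaving out primed wild-type replicate 3 with primed knock-out replicate 1. The fit was tested on simulated data. Same-numbered libraries deviated together in 1 comparison, fresh and primed knock-out cells (correlations of deviations 0.155, 0.15 and 0.124), so the blocked values stand beside that result; the pairing comes from these correlations and not from the labels. The labels do not say that replicates came from separate animals, so p-values measure only the spread between these samples, which may be technical.

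Members and gene lists were chosen with earlier results of these data known. The rule for named genes took the 5 inducible members, Psmb5, Psmb6 and Psmb7, the 3 largest rises and falls that passed in each comparison, and the smallest p in each role; other members were named after their values were seen. Some genes of the lists and 1 motif searched are not reported here.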

Additional observations from a re-analysis of the deposited data

Results flagged for a closer look

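The response to a stimulus differed between genotypes, by the test of the difference itself, for 14 gene and stimulus pairs. The priming response also holds the culture, and the NKG2D response the wash and the added time. For IL-15 priming (knock-out minus wild type, difference of log2 fold changes, edgeR, adjusted p under 0.05) the values among core genes were -0.55 for Psma2, -0.59 for Psma4, -0.74 for Psma5, -0.60 for Psma7, -0.55 for Psmb7, -0.77 for Psmb1 and -0.73 for Psmb2. Among activator genes they were -0.96 for Psme1, -0.89 for Psme2 and -0.85 for Psme2b. For NKG2D stimulation the values were -0.47 for Psmc5, -0.65 for Psmd1, -0.63 for Psmd6 and -0.55 for Psmd7. All 14 are below 0, and the priming and NKG2D values share the primed libraries.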

How the results depend on the processing

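Counts of genes called, out of 43, moved most with the test used. Between fresh genotypes the count of 0 became 2 with DESeq2, 17 with limma voom, 3 with no filter and 6 with the fresh libraries alone. Between primed genotypes the count of 9 became 17 with voom, 3 with the compared libraries alone and 4 with a minimum change of 1.2-fold. The 1.2-fold minimum also gave 14 in place of 25 between NKG2D genotypes, 14 in place of 23 for knock-out priming, 1 in place of 5 for NKG2D stimulation in wild type, 9 in place of 16 for it in knock-out and 2 in place of 4 for the difference of NKG2D responses, as a stricter hypothesis must. Voom gave 17 for NKG2D stimulation in wild type, 28 in place of 10 for the difference of priming responses and 10 for that of NKG2D responses. With no filter the priming responses differed in 16 genes, and with the compared libraries alone 10 changed in knock-out NKG2D stimulation and 2 in the NKG2D responses. Without the 2 primed libraries that stand apart, 8 changed with NKG2D in wild type. Where not stated, the cause was not tested.

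Leaving out each library in turn gave 4 to 14 genes between primed genotypes, 15 to 24 between NKG2D genotypes, 3 to 5 for NKG2D stimulation in wild type and 6 to 20 for the difference of priming responses. The sign of the NKG2D genotype difference turned for Psmb10 with voom (-0.033) and for Psmb9 with no filter (0.0034) and a stricter one (0.012), and over single libraries left out it ran from -0.23 to 0.076 for Psmb8, -0.22 to 0.11 for Psmb9 and -0.15 to 0.25 for Psmb10. Ratio differences that crossed 0 with 1 library left out ran from -0.059 to 0.084 for Psmb8 to Psmb5 in fresh cells, and in primed cells from -0.036 to 0.087 for Psmb8 to Psmb5, -0.26 to 0.0015 for Psmb9 to Psmb6 and -0.28 to 0.063 for Psmb10 to Psmb7, the last 2 turning without primed knock-out replicate 1. With the replicate number as a block the NKG2D responses differed in 2 genes, and 16 of 142 single results lost their call. Beyond knock-out priming the blocked values were given only as alternatives. Of same-numbered pairs, 1 of 9 across genotypes and 6 of 18 within a genotype had a correlation of deviations over 0.1. Of those 6, 3 were those of knock-out priming. The block behind the knock-out priming values was fitted over all 18 libraries, so it also tied NKG2D libraries by number. There, NKG2D knock-out replicate 1 had correlations of -0.267 with fresh and -0.255 with primed knock-out replicate 1.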
